A study of Homo sapiens with 6 samples.

Results

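The PPAR receptors, their RXR partners and 3 of their coregulators were examined in Huh7 cells that received the circular RNA hsa_circ_0098181. The 9 genes were taken by name from the 50868 genes of the table. No threshold on a measured value was applied, but the choice was made with earlier results of these data known. They were the receptors PPARA, PPARD and PPARG, the partners RXRA, RXRB and RXRG, the corepressor NCOR1, and the coactivators PPARGC1A and PPARGC1B. Huh7 cells are a hepatoma line in long use. Of the 6 libraries, 3 were made after transfection of the hsa_circ_0098181 plasmid, called overexpression here, and 3 after transfection of the control plasmid. Both groups were transfected with a Lipofectamine reagent, and total RNA was taken 48 hours later, so the comparison concerns a transient transfection of 1 cell line. The labels do not say whether the 3 libraries of a group were separate cultures, and p-values then measure only the spread between these libraries, which may be technical.

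PPARs are nuclear receptors that sense fatty acids and their derivatives. Each binds DNA as a pair with an RXR, the receptor for 9-cis retinoic acid. Without a ligand the pair can hold corepressor complexes such as that of NCOR1, and with a ligand it recruits coactivators, among them the PGC-1 proteins encoded by PPARGC1A and PPARGC1B. In the liver PPARA drives the oxidation of fatty acids during fasting, PPARG is best known as the master regulator of fat cells, and PPARD acts in many tissues. The study chose PPARA for follow-up with the help of mRNA sequencing of Huh7 cells overexpressing the circle and of target prediction for miR-18a-3p. The PPARA values below therefore describe these libraries and are not an independent test of that choice. The comparison made here was whether transcripts of PPARA, and of the proteins it works with, differed between the groups.

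A microRNA finds its targets mainly through its seed, the bases 2 to 8 counted from its 5′ end. The mature miR-18a-3p has 23 bases and comes from MIR18A on chromosome 13. Its sequence (RefSeq, GRCh38.p14, chr13:91350797-91350819, plus strand) is shown with the seed in capitals, because the sites below are the complement of these bases.
hsa-miR-18a-3p: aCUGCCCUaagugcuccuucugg

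The heptamer AGGGCAG, which pairs with all 7 seed bases, was looked for on the sense strand of the annotated 3′ UTR of 1 coding transcript per gene (GENCODE 29, GRCh38). It occurred 7 times in 4 of the 9 genes, and 15.2% of the 18770 coding genes searched held it at least once. PPARA had 2 matches in a 3′ UTR of 8375 bases, PPARGC1B had 3 in 7464 bases, RXRB had 1 in 1094 bases and RXRA had 1 in 405 bases. PPARD, PPARG, RXRG, NCOR1 and PPARGC1A had none. The matches are printed with the heptamer in capitals, in the direction of the transcript, so that the flanks can be compared. The position beside each name is that of the heptamer.
PPARA, chr22:46239248-46239254, plus strand: ggaggttccagggacAGGGCAGcctcccag
PPARA, chr22:46239426-46239432, plus strand: gtggcctctgtagttAGGGCAGgtgggatg
PPARGC1B, chr5:149850761-149850767, plus strand: gatagccgcccgcacAGGGCAGgtcgtact
PPARGC1B, chr5:149851290-149851296, plus strand: gcagtggtgagtaaaAGGGCAGggaaggca
PPARGC1B, chr5:149852821-149852827, plus strand: gcgctgcatatgtttAGGGCAGcttttgtt
RXRA, chr9:134436808-134436814, plus strand: acttgtctgtggcccAGGGCAGtggctttc
RXRB, chr6:33194558-33194564, minus strand: tggggtgagaagtacAGGGCAGaaccaaga

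Of these 7 matches, the one in RXRB is followed by an A, the base that commonly flanks strong target sites. By itself a match is a string of letters and not a shown binding site. For PPARA the study reported reporter gene assays with normal and mutated 3′ UTR fragments, and inferred direct binding by miR-18a-3p. Whether its predicted sites are the matches printed here was not checked. miR-18a-3p itself was not measured in these libraries. By quantitative PCR the study reported less miR-18a-3p and more PPARA transcript in overexpressing Huh7 and Hep3B cells. It also sequenced microRNAs of overexpressing Huh7 cells. In its rescue experiment a miR-18a-3p mimic weakened the rise of PPARA RNA and protein. In xenografts of overexpressing Huh7 cells it reported more PPARA transcript and protein.

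The libraries held 11130902 to 14138262 gene counts. SOX5, the host gene of the circle, whose counts may include reads from the plasmid, had 24906 to 33577 counts with overexpression and 380 to 453 counts with the control plasmid, as the labels have it. The hepatoma identity was checked with 9 hepatocyte marker genes, whose sum ranged from 31482 to 34192 CPM, the counts scaled to library size (TMM), with overexpression and 30559 to 36367 CPM with the control plasmid. AFP, a fetal serum protein that hepatomas often make, was at 10780 CPM or more in each library. 9 markers of other cell types summed to 184 to 199 CPM after overexpression against 178 to 207 CPM in the controls, mainly KRT19 (126 CPM) and PECAM1 (54.2 CPM), whereas LEP had 0 counts and VWF 1 count over all libraries. Among the markers, APOB had a log2 fold change of -0.39 (edgeR unadjusted p 0.0459, adjusted p 0.797), PTPRC of 0.49 and CD68 of -0.12. 2 libraries leaned in opposite directions with transcript length. For the 1577 tested genes with at least 10000 bases of merged exons, the median deviation from the gene's mean was -0.15 (log2) in overexpression replicate 1 and 0.14 in control replicate 1, against -0.0045 to 0.023 in the other 4 libraries. Control replicate 1 also had the largest share of mitochondrial counts, 9.29% against 6.32% to 7.04% elsewhere.

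8 of the 9 genes were expressed well enough to be tested, and none passed an adjusted p of 0.05 in edgeR's quasi-likelihood test over 15055 genes, where 0.0399% of all genes passed (0.0266% higher and 0.0133% lower with overexpression). DESeq2 also called none. In the main edgeR fit PPARA alone had an unadjusted p under 0.05, and 5.5% of all genes did (2.42% higher and 3.08% lower). NCOR1 also fell below it in edgeR with a filter that only asked for 1 count (unadjusted p 0.0467). The same was seen without control replicate 3 (edgeR unadjusted p 0.0436). PPARA was also the only member whose 3 overexpression values lay outside the range of the 3 controls, as was the case for 12.9% of all genes (6.4% higher and 6.5% lower). Since PPARA was picked partly from such sequencing, neither value is independent evidence of its direction. Of the 8 genes 6 had a positive and 2 a negative log2 fold change, with a median of 0.053, and 50.5% of all tested genes were positive. In bulk RNA, fewer cells expressing a gene and less RNA per cell cannot be told apart.

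**Figure D1:**
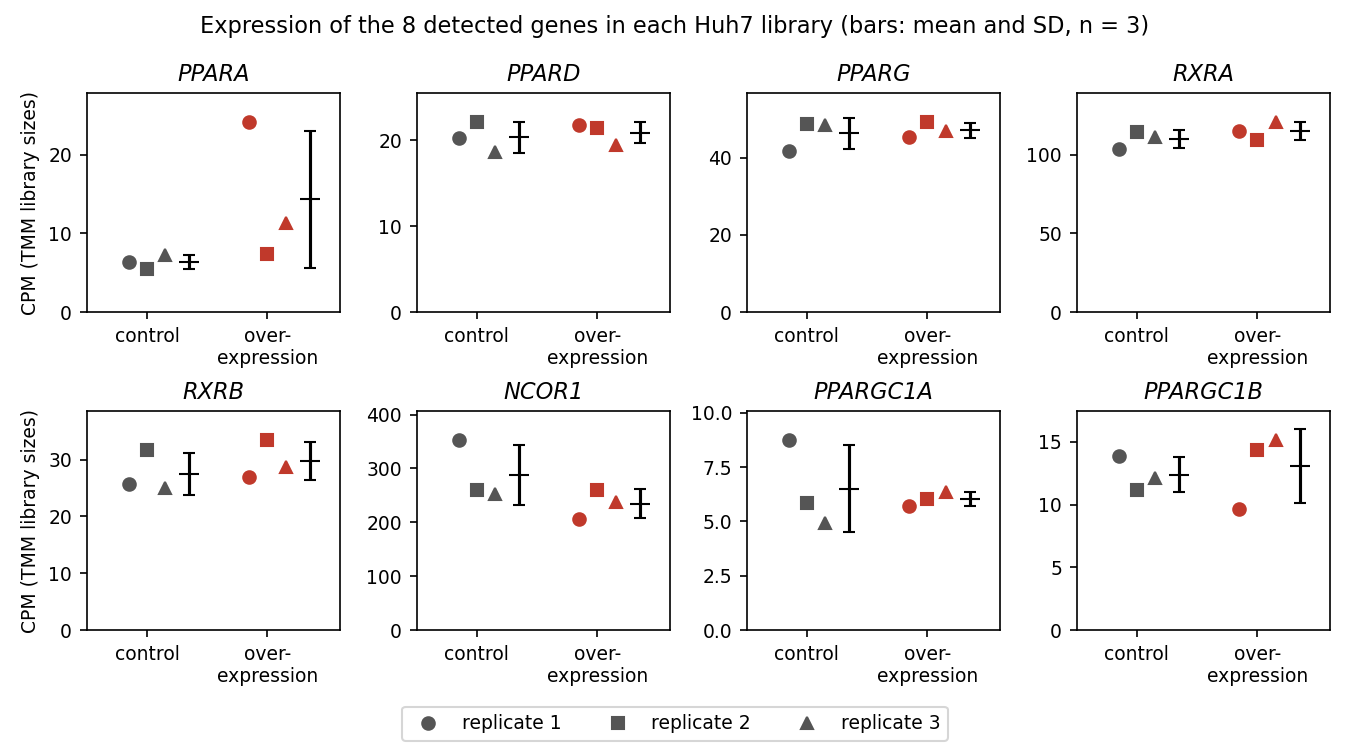
Expression of the 8 detected genes in each Huh7 library, in CPM on axes that start at 0. Points are libraries (grey, control; red, overexpression; marker shapes give the replicate number), and the black bars are the mean and SD of 3 libraries. PPARA was at 24.2 CPM in overexpression replicate 1 and between 5.44 and 11.4 CPM in the other 5 libraries.

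The PPARA gene (ENSG00000186951) occupies bases 46150521 to 46243756 of chromosome 22, plus strand (GRCh38). It had 342, 104 and 141 counts with overexpression and 69, 64 and 89 counts in the controls, in the order of the replicate numbers. After scaling to library size these were 24.2, 7.41 and 11.4 CPM against 6.36, 5.44 and 7.31 CPM. Overexpression replicate 1 stood far above the rest, and replicate 2, at 7.41 CPM, lay just above the highest control, at 7.31 CPM. The SD of the overexpression group was 61.2% of its mean, against 14.7% in the controls. PPARA thus had a log2 fold change of 1.17 (standard error 0.40, 95% interval 0.26 to 2.08, edgeR unadjusted p 0.018, adjusted p 0.797). Permuting the libraries exactly (two-sided, on log2(CPM + 0.5)) gave p = 0.1, the lowest value that 3 against 3 can reach. Leaving out overexpression replicate 1 lowered the log2 fold change to 0.56 (edgeR unadjusted p 0.0592, adjusted p 0.979).

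The distance of overexpression replicate 1 from its own group was uncommon among the genes of that library. The library and the gap size were taken from the PPARA values, so the share below is a description and not a test. PPARA lay 1.06 (log2) above the higher of the other 2 overexpression values. Among 14506 tested genes with a mean of at least 1 CPM, 32 (0.221%) showed a gap of this size or more in that library. The corresponding numbers were 36 and 44 in overexpression replicates 2 and 3 and 54, 36 and 36 in control replicates 1 to 3, so each library had such genes. PPARA has 13219 bases of merged exons, and the median deviation of genes with at least 10000 bases was -0.15 (log2) in overexpression replicate 1. The part of transcript length in the PPARA value was not tested.

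PPARD (ENSG00000112033, chromosome 6 at 35342558 to 35428191, plus strand) was at 21.7, 21.4 and 19.4 CPM with overexpression and 20.3, 22.1 and 18.6 CPM with the control plasmid. Its groups overlapped. PPARD had a log2 fold change of 0.037 with a 95% interval of -0.23 to 0.31 (edgeR adjusted p 0.954). PPARG (ENSG00000132170, chromosome 3 at 12287368 to 12434356, plus strand) was at 45.4, 49.2 and 46.8 CPM against 41.7, 48.7 and 48.5 CPM. Overexpression replicate 2 was the highest of the 6 and control replicate 1 the lowest, and the other 4 values overlapped. For PPARG the log2 fold change was 0.024 with a 95% interval of -0.21 to 0.26 (edgeR adjusted p 0.967). For both genes the interval excludes a change as large as the fitted value for PPARA.

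Whether PPARA differed from PPARD in its response was asked within each library. log2(CPM + 0.5) of PPARA minus that of PPARD was 0.15, -1.47 and -0.75 in the 3 overexpression libraries, in the order of their numbers, and -1.60, -1.93 and -1.29 in the controls. Overexpression replicate 2 lay among the controls. The mean difference between groups was 0.92, and the exact two-sided permutation test gave p = 0.2. Without overexpression replicate 1 it was 0.50.

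The family as a whole was dominated by PPARG at the level of transcripts per length. PPARA held 10.9%, 3.46% and 5.54% of the summed PPAR level (CPM per kb of merged exon) with overexpression against 3.38%, 2.55% and 3.59% in the controls. The highest control exceeded overexpression replicate 2, so the groups overlapped. The means were 6.65% ± 3.87 and 3.17% ± 0.546 (SD, n = 3 each; exact permutation p = 0.2), and without overexpression replicate 1 the difference fell from 3.47 to 1.32 percentage points. PPARG held 64.4% ± 3.92 and 66.9% ± 2.38 (SD, n = 3 each), with the rest from PPARD.

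RXRA (ENSG00000186350, chromosome 9 at 134317098 to 134440585, plus strand), the RXR best known from liver, was at 115, 110 and 121 CPM with overexpression and 103, 115 and 111 CPM with the control plasmid. The groups overlapped. RXRA had a log2 fold change of 0.069 with a 95% interval of -0.13 to 0.27 (edgeR adjusted p 0.872), which was the narrowest interval among the 8 genes. RXRB (ENSG00000204231, chromosome 6 at 33193588 to 33200688, minus strand), the form found in most tissues, was at 26.9, 33.5 and 28.8 CPM against 25.7, 31.8 and 24.97 CPM. Replicate 2 was the highest of its group in both, and the groups overlapped. For RXRB the log2 fold change was 0.11 with a 95% interval of -0.20 to 0.43 (edgeR adjusted p 0.871). RXRB shares 244 exon bases with SLC39A7, a zinc transporter gene on the opposite strand that had 1755 to 3111 counts per library, and since strand handling is not stated, reads of this stretch cannot be assigned with certainty.

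RXRG (ENSG00000143171, chromosome 1 at 165400917 to 165445355, minus strand), a form known from muscle and brain, had 0 counts in all 6 libraries and was not tested. A count of 0 allows up to 3 counts, which is 0.212 to 0.276 CPM depending on the library. RXRA held 60.2%, 53.7% and 59.7% of the summed RXR level per length with overexpression against 58.7%, 56.1% and 61.2% in the controls. The difference of -0.79 percentage points was smaller than the SD within either group (exact permutation p = 0.8).

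NCOR1 (ENSG00000141027, chromosome 17 at 16029157 to 16218185, minus strand) encodes a scaffold of the complex that carries histone deacetylase 3 to unliganded receptors. It was at 206, 261 and 237 CPM with overexpression and 353, 260 and 253 CPM with the control plasmid. Control replicate 1 stood above the other 5 libraries and overexpression replicate 1 below them, and overexpression replicate 2 lay among the controls. For NCOR1 the log2 fold change was -0.30 with a 95% interval of -0.64 to 0.038 (edgeR unadjusted p 0.0754, adjusted p 0.797). NCOR1 has 15404 bases of merged exons, and these 2 libraries are those that leaned with transcript length. Without control replicate 1 the log2 fold change was -0.13, and without both libraries, an alternative chosen after seeing the data, it was -0.043 (edgeR adjusted p 0.995). The part of transcript length in the result was not tested.

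PPARGC1A (ENSG00000109819, chromosome 4 at 23755041 to 23904089, minus strand), the coactivator induced by fasting and cold, was at 5.72, 6.05 and 6.37 CPM with overexpression and 8.75, 5.86 and 4.93 CPM with the control plasmid. The controls spanned more than the whole overexpression group. The log2 fold change was -0.10 with a 95% interval of -0.64 to 0.43 (edgeR adjusted p 0.931), and without control replicate 1 its sign turned to 0.17. PPARGC1B (ENSG00000155846, chromosome 5 at 149730298 to 149855022, plus strand), its close relative, was at 9.68, 14.4 and 15.2 CPM against 13.9, 11.1 and 12.2 CPM. Overexpression replicate 1 was the lowest of all 6 and replicates 2 and 3 were the highest. The log2 fold change was 0.076 with a 95% interval of -0.36 to 0.52 (edgeR adjusted p 0.941), and without overexpression replicate 3 it was -0.041. Without replicate 1 of both groups it was 0.34 (edgeR unadjusted p 0.056, adjusted p 0.995).

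**Figure D2:**
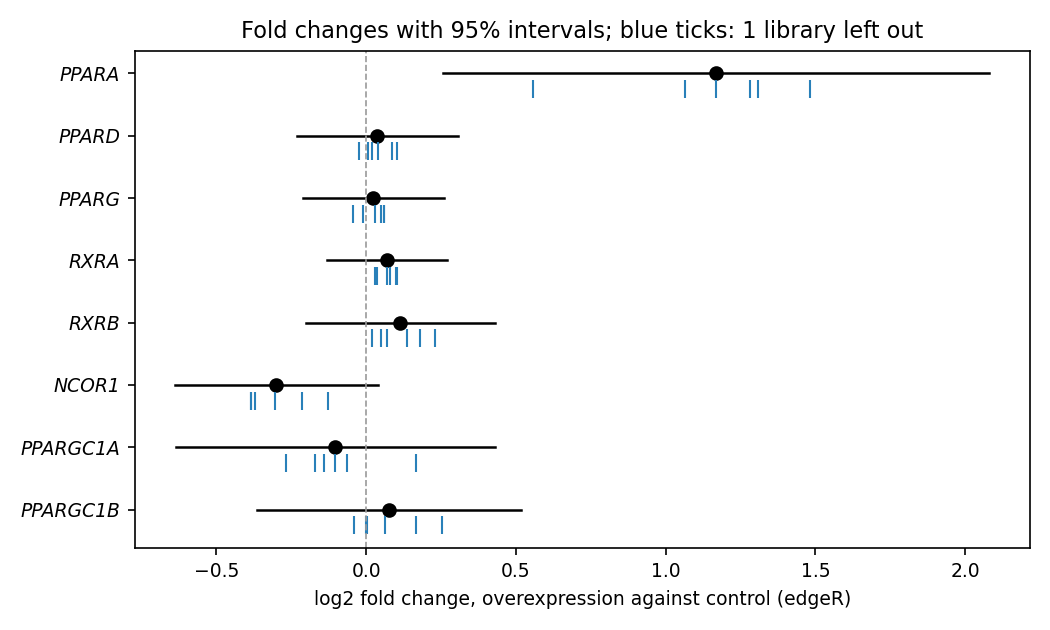
log2 fold changes of the 8 tested genes, overexpression against control, from edgeR. Black points and lines are the estimates and 95% intervals, and blue ticks are the 6 fits that each left out 1 library. The interval of PPARA runs from 0.26 to 2.08, and its lowest tick, at 0.56, is the fit without overexpression replicate 1.

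The genes with heptamer matches differed in their values. PPARGC1B, with 3 matches, had a log2 fold change of 0.076, RXRA and RXRB, with 1 match each, had 0.069 and 0.11, and PPARA, with 2 matches, had 1.17. The tested genes without a match ran from -0.30 for NCOR1 to 0.037 for PPARD. The intervals of PPARGC1B, RXRA and RXRB ran from negative to positive values. In the fits that each left out 1 library, PPARGC1B ran from -0.041 to 0.25. Of the genes without a match, PPARGC1A ran from -0.27 to 0.17 and NCOR1 from -0.38 to -0.13 in these fits. Whether genes with and without a match differed was not tested.

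Levels were compared between genes only per length, as CPM per kb of merged exon, averaged over all 6 libraries. NCOR1 was highest on this scale with 17.0 (range 13.4 to 22.9). PPARG with 10.3 (9.20 to 10.9) and RXRA with 10.1 (9.33 to 10.9) followed, and these neighbours did not differ beyond their spread. RXRB was at 7.30 (6.37 to 8.54) and PPARD at 4.62 (4.16 to 4.96), and the ranges of each were separate from those of its neighbours. PPARGC1B at 0.988 (0.751 to 1.18), PPARA at 0.782 (0.411 to 1.83) and PPARGC1A at 0.578 (0.453 to 0.805) formed a low group with overlapping ranges, and RXRG was at 0. PPARA, the form prominent in normal liver, was thus the lowest PPAR in these cells in each library. With the deposited FPKM, for which the gene length used is not given, the means were 9.81 for NCOR1, 9.68 for RXRA and 6.71 for PPARG, so RXRA came out above PPARG and next to NCOR1. On that scale the ranges of NCOR1 (7.74 to 12.9) and RXRA (8.68 to 10.5) overlapped. The mean of NCOR1 thus came first on both scales, but its separation from RXRA depends on the scale. The low group stayed low (0.414 to 0.819).

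**Figure D3:**
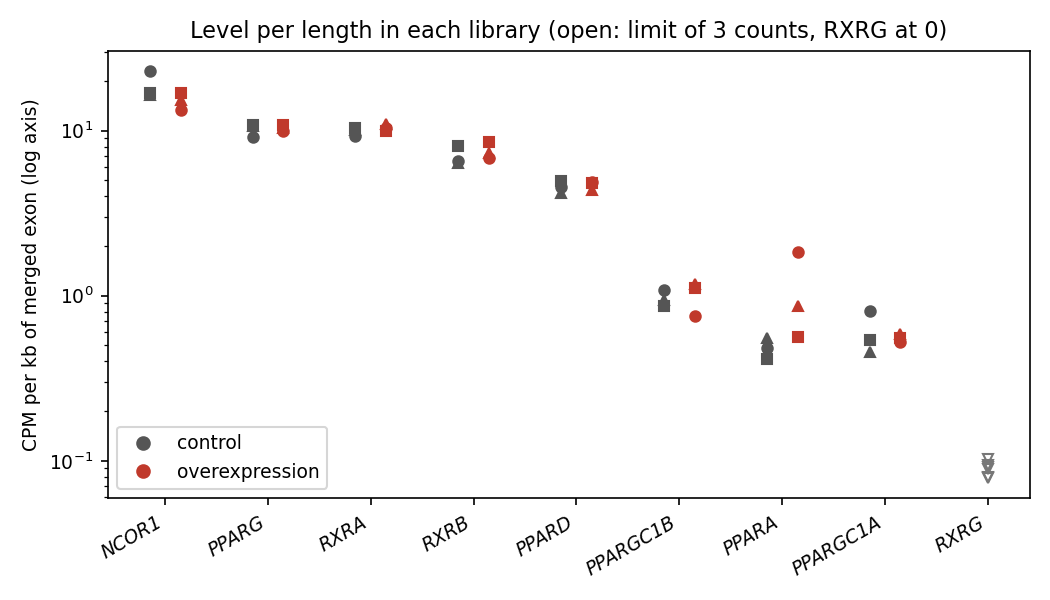
Level per length of the 9 genes in each library, in CPM per kb of merged exon on a log axis. Grey points are controls and red points overexpression (marker shapes give the replicate number), and open triangles mark the level that 3 counts would give for RXRG, which had 0. NCOR1, PPARG, RXRA, RXRB and PPARD lie above 4, and PPARGC1B, PPARA and PPARGC1A below 2.

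The profile of PPARA over the 6 libraries was compared with 14505 other genes by the root mean square distance of log2(CPM + 0.5), each gene centred on its mean. The 5 nearest genes were MPZL1, CCDC137, PEX19, CGA and PCDHGA11, at distances of 0.27 to 0.37. MPZL1, a cell surface glycoprotein gene, was at 95.04, 26.3 and 29.7 CPM with overexpression and 28.2, 26.5 and 28.7 CPM with the control plasmid. Only its overexpression replicate 1 stood apart. PEX19, which encodes a chaperone for peroxisomal membrane proteins, was at 88.0, 40.5 and 73.0 CPM against 31.0, 41.5 and 44.9 CPM, with overexpression replicates 1 and 3 high. The genes were selected for likeness over the same libraries, so no test applies, and none of them passed an adjusted p of 0.05 (edgeR adjusted p 0.797 in each). The 7 other tested members were farther from PPARA. RXRA was the nearest at 0.66, with 4092 genes closer, and NCOR1 the farthest at 0.87.

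**Figure D4:**
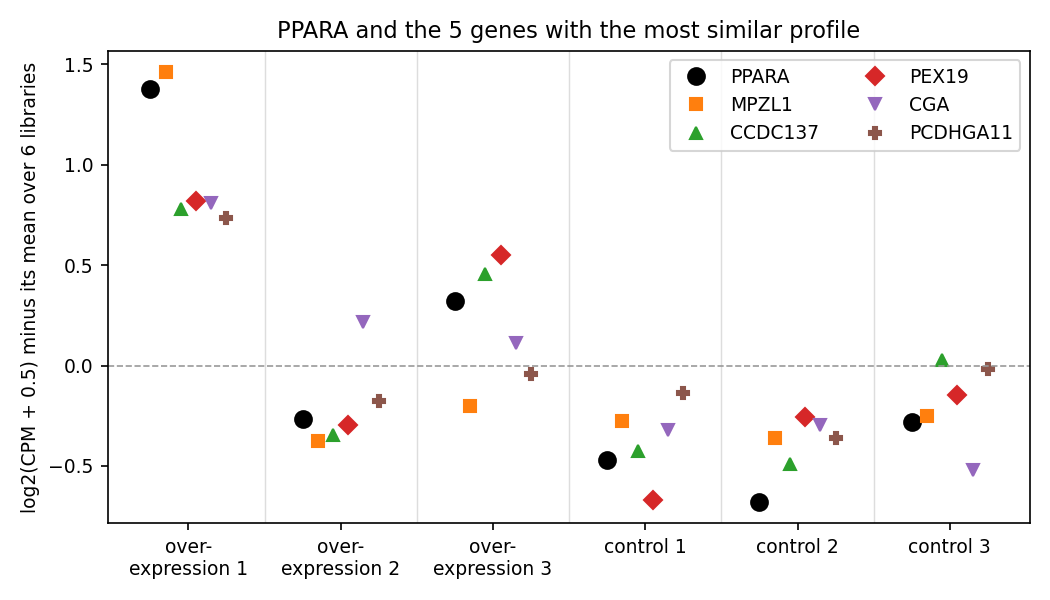
log2(CPM + 0.5) minus its mean over the 6 libraries for PPARA (black circles) and the 5 genes with the smallest distance to it, by library. All 6 genes are highest in overexpression replicate 1, where PPARA is at 1.38 and MPZL1 at 1.46.

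Beyond the 9 genes, 88 further genes of the pathway in 6 lists were read from the same fit, of which 78 were tested. None passed an adjusted p of 0.05 in edgeR. 7 of the 78 (8.97%) had an unadjusted p under 0.05, against 5.5% of all genes. These 7 were lower with overexpression, and 3.08% of all genes were lower at this p. The part of transcript length in this count was not tested.

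All 14 coactivator genes were tested, and 11 had a negative and 3 a positive log2 fold change, with a median of -0.20 against 0.0023 over all genes. EP300, a histone acetyltransferase, was at 102, 157 and 143 CPM after overexpression against 211, 161 and 164 CPM in controls, so the groups did not overlap and control replicate 1 was highest. It averaged 134 ± 28.5 CPM after overexpression against 179 ± 28.2 CPM in controls (SD, n = 3 each). Its log2 fold change was -0.42 (edgeR unadjusted p 0.041, adjusted p 0.797). NCOA6, a scaffold of a histone methyltransferase complex, had -0.40 and MED1, the Mediator subunit that contacts nuclear receptors, had -0.36. Without control replicate 1 NCOA6 was at -0.18 (edgeR unadjusted p 0.0851) and EP300 at -0.28 (p 0.143). Without overexpression replicate 1 EP300 was at -0.26 (edgeR unadjusted p 0.115) and MED1 at -0.23 (p 0.083). The median deviation of the list was -0.22, 0.033 and -0.071 (log2) with overexpression against 0.36, -0.019 and 0.027 in the controls. Control replicate 1 stood above the others, and overexpression replicate 1 was lowest. Without control replicate 1 the median log2 fold change of the list was -0.048, and without both libraries -0.021. Genes with at least 10000 bases of merged exons had a median log2 fold change of -0.12, and 76.3% of them were lower, whereas the median was 0.053 for genes under 5000 bases. The coactivators had a median of 7866 bases, and the part of length in their values was not tested.

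Of 10 corepressor genes, 2 were positive and 8 negative, with a median of -0.082, which was -0.15 without control replicate 2 and -0.052 without control replicate 1. NRIP1, a ligand-dependent corepressor, was at 35.1, 55.8 and 59.0 CPM with overexpression and 66.9, 63.4 and 70.1 CPM with the control plasmid. Its groups did not overlap, with overexpression replicate 1 the lowest (log2 fold change -0.42, edgeR unadjusted p 0.0477, adjusted p 0.797). Without that library the log2 fold change was -0.22 (edgeR unadjusted p 0.0723).

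Among 13 other nuclear receptors that pair with RXRs or bind beside them, 11 were tested, 8 positive and 3 negative, with a median of 0.041, which ran from 0.0031 without control replicate 1 to 0.079 without overexpression replicate 1 and also fell to 0.0082 or 0.019 without overexpression replicate 2 or 3. THRB, a thyroid hormone receptor, had -0.28 (edgeR unadjusted p 0.0373, adjusted p 0.797), its groups overlapped, and without control replicate 1 its value was -0.18 (edgeR unadjusted p 0.105). Of 11 genes for factors that work with the PGC-1 coactivators, 9 were tested, 5 positive and 4 negative, with a median of 0.027. This median changed its sign to -0.049 without overexpression replicate 1, to -0.019 without control replicate 1 and to -0.03 without replicate 1 of both groups. HNF4A, a master regulator of hepatocytes, was at 76.1, 113 and 85.4 CPM with overexpression and 197, 99.9 and 104 CPM with the control plasmid, and only control replicate 1 stood apart. Its log2 fold change was -0.54 (edgeR unadjusted p 0.0746, adjusted p 0.797) and -0.16 without that library. TFB1M, a mitochondrial methyltransferase, had 0.29 (edgeR unadjusted p 0.091), and 0.19 without control replicate 3.

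For targets of PPARA, mainly enzymes and carriers of fatty acid oxidation, 29 of 32 listed genes were tested. 19 were positive and 10 negative, with a median of 0.083, which was 0.046 without control replicate 3, 0.052 without control replicate 1 and 0.022 without replicate 1 of both groups. The targets had a median of 4519 bases of merged exons, and 34.5% of those tested were lower. Of all tested genes under 5000 bases 39.3% were lower, with a median log2 fold change of 0.053. The part of length in the target values was not tested. In this list 1 of the 29 (3.45%) had an unadjusted p under 0.05, against 5.5% of all genes (3.08% lower). That gene was CREB3L3, a liver transcription factor of the fasting response, which was at 48.0, 39.0 and 38.7 CPM with overexpression and 67.1, 54.6 and 46.9 CPM with the control plasmid. Overexpression replicate 1 lay above control replicate 3, so the groups overlapped (log2 fold change -0.42, edgeR unadjusted p 0.0231, adjusted p 0.797). Without control replicate 1 it was -0.28 (edgeR unadjusted p 0.0791). Per library, the median deviation of the targets was 0.025, 0.012 and 0.062 (log2) with overexpression against -0.092, 0.050 and -0.030 in the controls. Overexpression replicate 1, which had the most PPARA counts, did not have the highest target level. Of 8 genes known as targets of PPARG and PPARD, 5 were tested, 2 positive and 3 negative, with a median of -0.11. This median was -0.22 without control replicate 1. Its sign turned to 0.026 with a filter at a mean of 50 counts and to 0.050 with limma on log2(FPKM + 1). UCP3, a mitochondrial carrier, had 7, 18 and 15 counts with overexpression against 32, 16 and 32 in the controls, a log2 fold change of -1.21 (edgeR unadjusted p 0.0215, adjusted p 0.797) that was -0.88 without overexpression replicate 1 (p 0.0677). FABP4 and ADIPOQ, marker genes of fat cells, had 4 counts or fewer in each library, and PLIN1 averaged 0.839 CPM over all libraries. Other genes of this list were expressed, with means of 13.0 CPM for CIDEC, 10.2 for PLIN4, 24.6 for LPIN1 and 29.4 for UCP2.

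**Figure D5:**
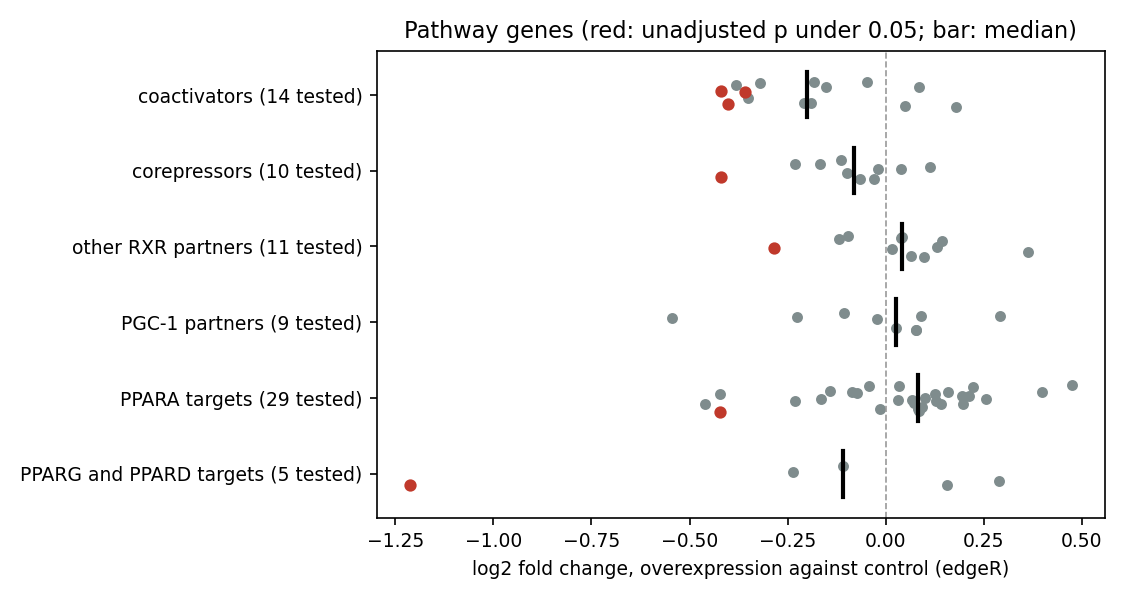
log2 fold changes, overexpression against control, of the 78 tested pathway genes in 6 lists (edgeR). Each point is a gene, red where the unadjusted p was under 0.05, and black bars are list medians. The medians run from -0.20 for the coactivators to 0.083 for the PPARA targets, and the lowest point is UCP3 at -1.21.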

How the data were processed

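RNA sequencing of total RNA from 6 Huh7 libraries, 3 per group, was analysed. Sample titles gave the groups and replicate numbers. In 1 table the authors deposited values for each gene and library, as whole-number read counts that were not normalized and as FPKM. The submitters' processing notes name TopHat2 2.0.9 and hg38. The counting tool, the annotation and the handling of strand are not given in the sources used here. All 9 genes had the same position in GENCODE 29 (GRCh38).

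Counts were tested with edgeR 4.0.16 under R 4.3.3 (genes kept by filterByExpr at min.count 10, TMM factors, glmQLFit, glmQLFTest, group as the only term, two-sided, Benjamini-Hochberg adjustment over 15055 genes). CPM used TMM library sizes. Standard errors were derived from the F statistic, and 95% intervals from these and the test's degrees of freedom. Length was that of the merged GENCODE 29 exons. limma 3.58.1 and DESeq2 1.42.0 served as alternatives, and each test was run on simulated data. Library pairs within groups differed by 10.1 to 20.9 chi-square per degree of freedom, so none was a copy. The floor of 3 counts covers counting error only. The 3′ UTR searched was that of the transcript with the longest coding sequence. Other transcripts of a gene were not searched.

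Named genes were the 9 members, from each list every gene at an unadjusted p under 0.05 or otherwise the 2 with the largest absolute log2 fold change at a mean of at least 1 CPM, and the 5 genes nearest to PPARA. The further details given for KRT19, PECAM1, LEP, VWF, AFP, FABP4, ADIPOQ, PLIN1, CIDEC, PLIN4, LPIN1, UCP2 and SLC39A7 were chosen after their values were seen. The members and lists were chosen with earlier results of these data known.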

Additional observations from a re-analysis of the deposited data

How the results depend on the processing

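The 8 tested genes stayed on the same side of the threshold, not past it, under every alternative fit that gave them a value. These fits were RLE and upper-quartile normalization, DESeq2, a filter that only asked for 1 count, and one that asked for a mean of 50 counts. The others were limma on log2(FPKM + 1), a replicate block, and fits without single libraries. A pseudocount of 1 was tried only in the exact permutation tests, which cannot go below p = 0.1 with 3 against 3 libraries. PPARA stayed positive throughout, at 1.17 with DESeq2 (unadjusted p 0.00149, adjusted p 0.381), 1.02 with the replicate block and from 0.56 to 1.48 without 1 library (edgeR adjusted p 0.668 to 0.979). PPARA, PPARGC1A and PPARGC1B gave no value with limma, since they did not reach 1 FPKM in 3 libraries. Without 1 library PPARD ran from -0.023 to 0.10, PPARG from -0.044 to 0.061, PPARGC1A from -0.27 to 0.17, PPARGC1B from -0.041 to 0.25, and the RXRA share of the RXR level from -2.09 to 1.31 percentage points, so their signs were not stable. Without replicate 1 of both groups, chosen after seeing the data, PPARG turned to -0.017 and PPARGC1A to 0.20. Summing RXRB with SLC39A7 gave 0.14 and NCOR1 with its 2 overlapping genes -0.29, also chosen after seeing the data. A shared replicate number was not used as a pairing, and the titles do not say whether same-numbered libraries were handled together. Deviations of same-numbered libraries correlated at -0.036, -0.023 and -0.031 over 15055 genes, and the replicate block changed no call of a member. These correlations cannot exclude a pairing, since the spread of single libraries also enters them. Over all genes edgeR called 4 higher and 2 lower, DESeq2 8 higher and 20 lower, and the replicate block 2 higher and 2 lower. Without 1 library 1 to 7 were higher and 2 to 9 lower. The extremes were the fits without overexpression replicate 2 (7 and 9) and without control replicate 3 (1 higher). The cause was not tested. PPARGC1A (469) and PPARA (809) had the lowest total counts among the tested members, with 60 to 95 and 64 to 342 per library. In overexpression replicate 1 PPARA, at 342 counts, lay above PPARGC1B at 137 and PPARD at 307.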
